A study of Arabidopsis thaliana with 75 samples.

Results

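JAZ1 to JAZ10 are the 10 members of the JASMONATE ZIM-DOMAIN family that were followed here through wounding of Arabidopsis thaliana leaves. They were taken by gene identifier, as 10 of the 32833 rows of the gene count table, and the rule uses no measured value. All 10 were among the 23475 genes with enough counts to be tested. JAZ proteins are repressors of jasmonate signalling: they hold MYC transcription factors inactive through the adaptor NINJA and the co-repressor TOPLESS. When a leaf is wounded, jasmonoyl-isoleucine accumulates and glues JAZ proteins to the F-box protein COI1, which marks them for destruction, and the freed MYC factors then transcribe defence genes and the JAZ genes themselves. The JAZ genes are therefore both brakes on the wound response and widely used markers of it.

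The 8th leaf of 4-week-old plants was cut with a steel blade, and polyadenylated RNA of whole leaf tissue was sequenced with a strand-marking kit in 75 libraries, 3 for each of 25 groups. The libraries labelled gpat4 gpat8 are named for 2 acyltransferases of cutin synthesis and cover 0h to 12h (0h, 2h, 4h, 12h) and then 1D, 2D and 3D. The libraries labelled rbohE are named for an NADPH oxidase that makes extracellular superoxide and cover 0h, 2h and 4h, then 1D, 3D and 5D. The wild type (WT) libraries cover the first hours (0h, 1h, 2h, 4h, 6h, 12h, 18h) and then every day to 5D (h, hours and D, days after cutting). Every library, those at 0h included, is labelled as wounded. No leaf left uncut until a later time was available here, so time after cutting cannot be told apart from time of day or leaf age. Nothing in the labels says that the 3 libraries of a group came from separate plants, so p-values measure only the spread between these samples, which may be technical. In RNA of whole tissue, fewer cells of a type and less RNA per cell cannot be told apart.

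A library held between 46045188 and 67376782 counts, and the middle one 61143105. Among the targeted genes, RBOHE averaged 2.73 ± 0.131 CPM (counts scaled to a common library size) in rbohE leaves and 45.7 ± 3.67 CPM in WT leaves at 3D, and 1.55 ± 0.330 CPM in rbohE leaves and 15.9 ± 1.59 CPM in WT leaves at 5D (SD, n = 3 each). GPAT4 averaged 38.2 ± 3.85 CPM in leaves labelled gpat4 gpat8 and 99.8 ± 7.40 CPM in WT leaves at 3D, but GPAT8 averaged 14.4 ± 3.48 CPM in leaves labelled gpat4 gpat8 and 4.92 ± 0.200 CPM in WT leaves, which goes against the label. At 0h RBOHE averaged 0.736 ± 0.291 CPM in leaves labelled rbohE and 0.197 ± 0.0322 CPM in WT leaves (SD, n = 3 each), low in both and called higher in the leaves labelled rbohE (1.88 on the log2 scale), which goes against the label. GPAT4, at 27.1 ± 2.66 CPM in leaves labelled gpat4 gpat8 and 33.1 ± 5.44 CPM in WT leaves, and GPAT8, at 13.2 ± 1.39 CPM in leaves labelled gpat4 gpat8 and 7.27 ± 2.64 CPM in WT leaves (SD, n = 3 each), were not called at 0h. Every gpat4 gpat8 library at 0h, 12h and 1D, 9 in all, carries the letter M in its description, whose meaning is not stated. Plastid-encoded genes took a median of 1.56% of the counts of those 9 libraries, against 0.458% in the other 12 gpat4 gpat8 libraries, 0.444% in rbohE and 0.382% in WT libraries. All 4 mesophyll markers were above the floor of 3 counts in all 25 groups. Of 4 epidermis markers, 1 was at the floor in WT leaves at 2h, 4h, 6h, 18h and from 1D to 5D. The same number was at the floor in rbohE leaves at 3D and 5D.

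Of the members, 7 lie on chromosome 1 of the TAIR10.1 assembly and the others on chromosomes 2, 3 and 5. JAZ1 (AT1G19180, chr1:6621777-6623668, plus strand) and JAZ2 (AT1G74950, chr1:28148574-28150446, minus strand) are each other's closest copy, with 72.2% identity over 632 aligned bases of transcript. JAZ5 (AT1G17380, chr1:5955155-5957511, minus strand) and JAZ6 (AT1G72450, chr1:27273968-27276562, minus strand) pair at 71.9% over 313 bases. JAZ7 (AT2G34600, chr2:14573030-14573952, plus strand) and JAZ8 (AT1G30135, chr1:10596352-10597341, plus strand), whose proteins lack the canonical degron read by COI1, pair at 73.0% over 382 bases. JAZ3 (AT3G17860, chr3:6119707-6123044, plus strand) and JAZ4 (AT1G48500, chr1:17931390-17934662, plus strand) pair at 66.4% over 586 bases. JAZ9 (AT1G70700, chr1:26654529-26657350, plus strand) shared 84 alignable bases with JAZ4, and JAZ10 (AT5G13220, chr5:4218786-4221077, plus strand), known for splice forms that escape degradation, had no alignable copy. No pair was near-identical, and the only annotated overlap was 71 bases of JAZ10 with a long noncoding RNA on the other strand.

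MYC2, the best known target of JAZ repression, binds the G-box CACGTG and the related AACGTG. Both motifs were searched on both strands in the window from 250 bases before to 50 bases after each annotated start, in RefSeq sequence of TAIR10.1. CACGTG occurred in 4 of the 10 members (JAZ2, JAZ3, JAZ7 and JAZ8) and in 7.7% of 27443 protein-coding genes. AACGTG occurred in 3 of the 10 (JAZ3, JAZ5 and JAZ6) and in 9.0% of genes. Of the 1000 bases upstream, those of 9 of the 10 members held at least 1 of these motifs, against 34.6% of all genes. The start regions of 3 members are shown, those of JAZ7, JAZ8 and JAZ3, which hold CACGTG and whose genes rose in the first hours. Capitals mark the motifs, and CACGTT is AACGTG read on the other strand. The regions are chr2:14572780-14573079 (JAZ7), chr1:10596102-10596401 (JAZ8) and chr3:6119457-6119756 (JAZ3), all on the plus strand.
JAZ7: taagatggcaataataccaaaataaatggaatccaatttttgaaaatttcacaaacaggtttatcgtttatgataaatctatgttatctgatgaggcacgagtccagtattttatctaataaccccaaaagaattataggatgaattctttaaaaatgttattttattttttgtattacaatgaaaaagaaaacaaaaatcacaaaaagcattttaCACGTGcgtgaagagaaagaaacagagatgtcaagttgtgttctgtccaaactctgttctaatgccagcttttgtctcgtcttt
JAZ8: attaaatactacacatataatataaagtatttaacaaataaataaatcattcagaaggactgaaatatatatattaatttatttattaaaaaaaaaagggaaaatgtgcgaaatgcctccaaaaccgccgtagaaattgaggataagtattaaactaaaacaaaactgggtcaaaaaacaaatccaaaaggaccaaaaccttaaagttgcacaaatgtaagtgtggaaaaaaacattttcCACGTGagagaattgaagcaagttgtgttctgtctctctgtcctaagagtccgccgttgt
JAZ3: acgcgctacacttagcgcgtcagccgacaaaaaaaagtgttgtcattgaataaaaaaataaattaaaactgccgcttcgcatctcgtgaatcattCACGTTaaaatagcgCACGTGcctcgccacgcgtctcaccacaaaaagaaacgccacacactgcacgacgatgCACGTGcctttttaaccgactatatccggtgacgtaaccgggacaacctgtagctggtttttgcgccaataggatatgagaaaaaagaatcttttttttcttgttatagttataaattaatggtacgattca

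The motif begins 34 bases before the start in JAZ7 and 10 bases before it in JAZ8. These are the 2 members with the largest changes at 1h, described next. JAZ2 and JAZ3 also hold CACGTG and rose by 2.93 and 2.77 on the log2 scale at 1h in WT leaves. JAZ5, JAZ10 and JAZ1, with no CACGTG in the window, rose more, by 4.50, 3.83 and 3.57. Of the others without it, JAZ6 rose by 2.86, JAZ9 rose by less and JAZ4 did not rise. A link between the motif and the size of the rise was not tested. In JAZ3 the 2 copies of CACGTG begin 140 and 82 bases before the start and the AACGTG 155 bases before it. A match is a description of these letters and not a measured binding site.

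Before the response, in WT leaves at 0h, JAZ9 was the most abundant member per length of transcript. It stood at 262 ± 74.1 CPM per kb of the longest annotated transcript, and took 43.7% of the summed level of the 10 genes. JAZ2 followed at a mean of 99.9 CPM per kb, and JAZ6 and JAZ1 at 86.8 ± 7.66 and 85.7 ± 22.8 CPM per kb (SD, n = 3 each), with ranges that overlapped between neighbours in that order. JAZ3 stood lower at 33.2 ± 3.53 CPM per kb, and JAZ10 and JAZ5 overlapped at 10.6 ± 1.60 and 10.5 ± 1.96 CPM per kb. The lowest levels were those of JAZ7 at 3.65 ± 1.42, JAZ8 at 1.14 ± 0.221 and JAZ4 at 0.548 ± 0.185 CPM per kb.

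**Figure D1:**
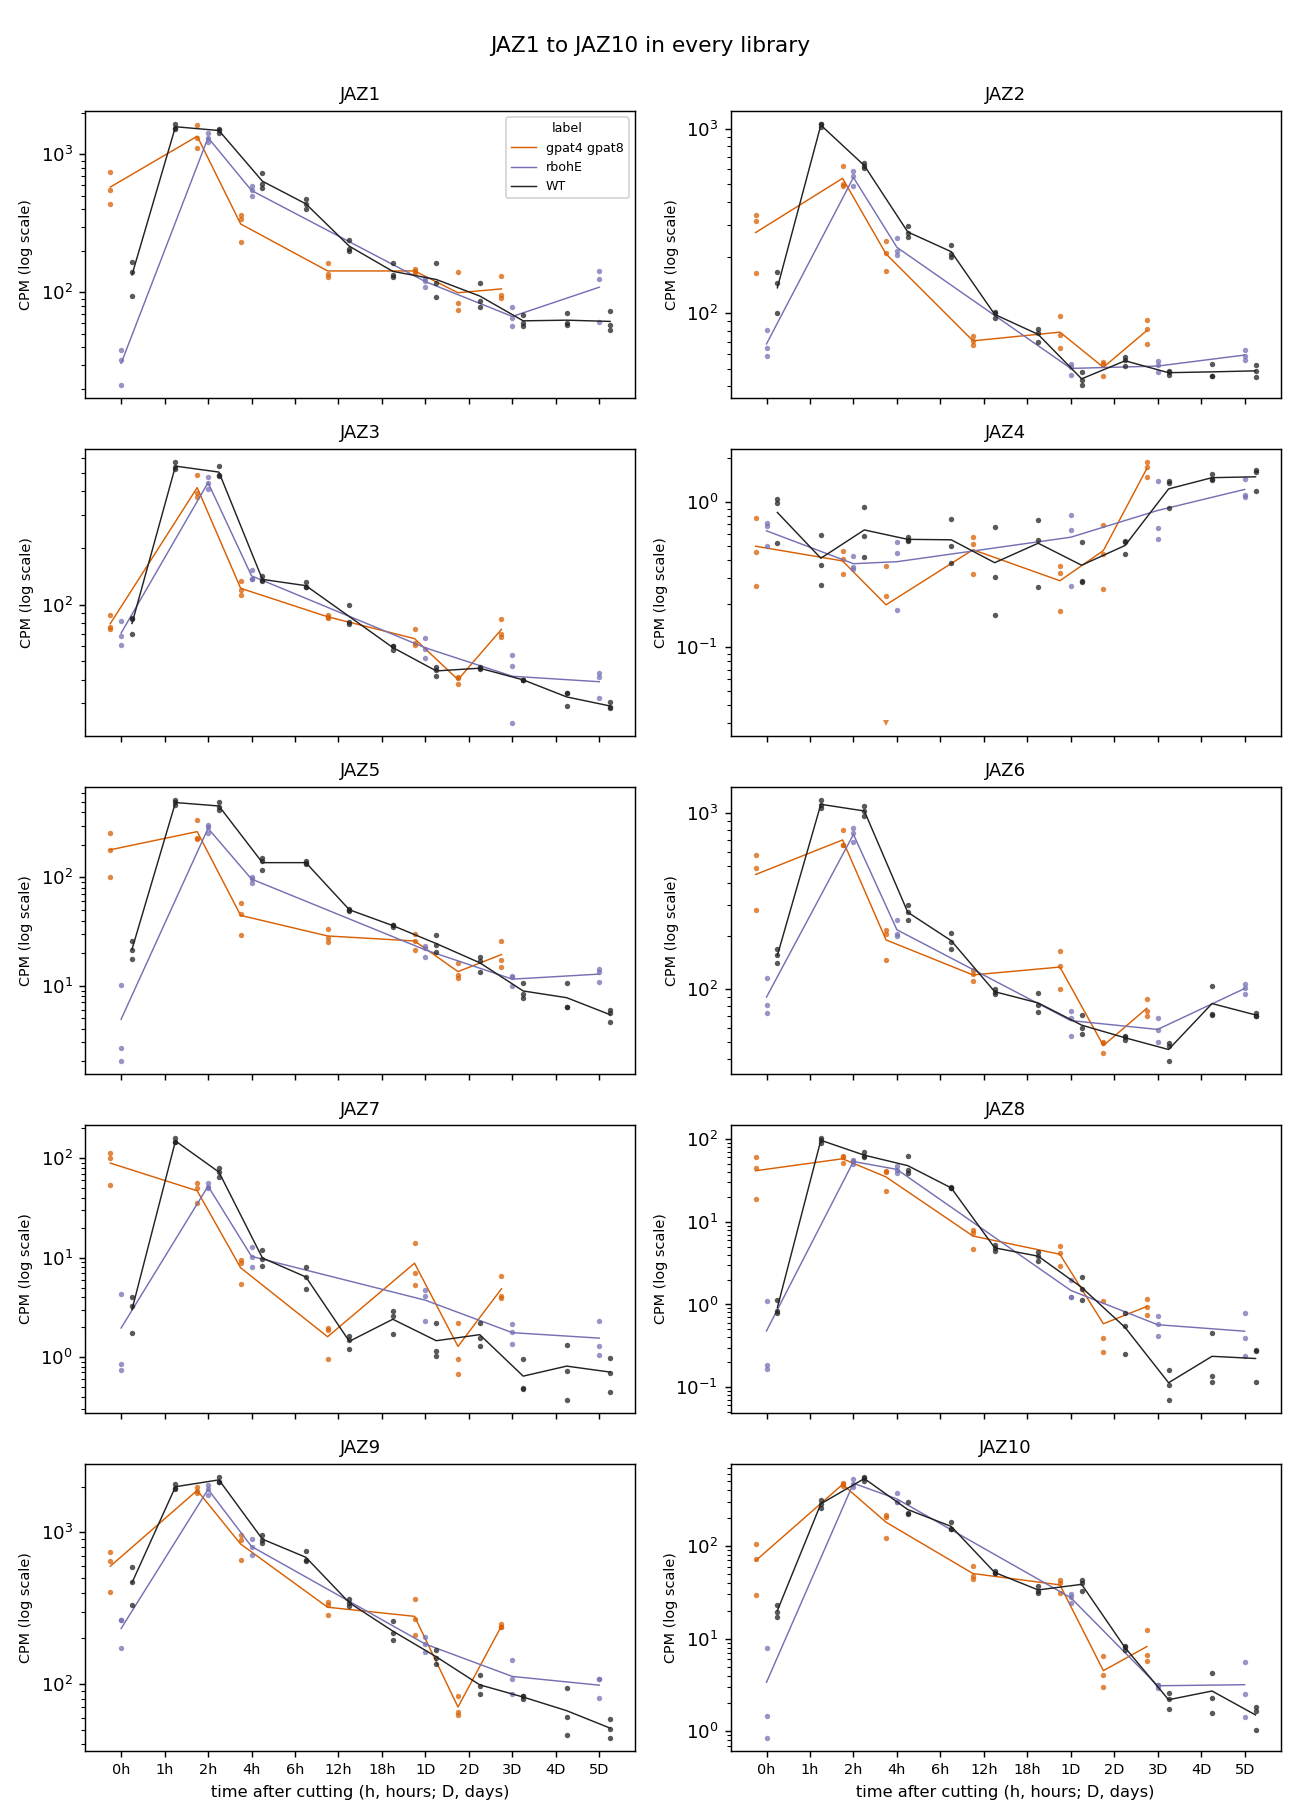
Level of each member in every library, in CPM on a log axis, against time after cutting on an evenly spaced axis. Points are libraries (3 per group), lines join group means, and colours mark gpat4 gpat8, rbohE and WT. The 1 gpat4 gpat8 library at 4h with a JAZ4 count of 0 is drawn as a triangle at the lower edge. In 9 panels the WT points stand highest at 1h or 2h, and JAZ4 stays under 2 CPM throughout.

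Within 1h of cutting, 9 of the 10 members had risen in WT leaves. The test was edgeR's quasi-likelihood test over all genes, and a call required an adjusted p (Benjamini-Hochberg, over all tested genes) under 0.05 with a change of 1 or more on the log2 scale. By that rule 16.3% of all tested genes were called higher at 1h, and the median change was 3.25 for the 10 members, against -0.10 for all genes, both on the log2 scale. The same 9 members were called higher at 2h, where 18.2% of all genes were. The largest changes were those of JAZ8 and JAZ7, which repress transcription through a motif of their own that recruits TOPLESS. JAZ8 had 98.7, 89.8 and 102 CPM in WT leaves at 1h, against 0.840, 0.789 and 1.12 CPM at 0h, a change of 6.72 ± 0.44 on the log2 scale (SE, adjusted p = 1.28e-19). JAZ7 had 158, 144 and 144 CPM at 1h, against 4.03, 3.25 and 1.73 CPM at 0h, a change of 5.63 ± 0.48 (SE, adjusted p = 3.36e-15). The libraries of the 2 times were far apart for both genes, with JAZ8 105-fold and JAZ7 49.4-fold higher at 1h.

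JAZ5 and JAZ6 differed in how far they rose. JAZ5 had 498, 462 and 516 CPM in WT leaves at 1h, against 25.9, 17.8 and 21.4 CPM at 0h, a change of 4.50 ± 0.33 on the log2 scale (SE, adjusted p = 6.34e-18). JAZ6 had 1121, 1068 and 1186 CPM at 1h, against 141, 168 and 155 CPM at 0h, a change of 2.86 ± 0.18 on the log2 scale (SE, adjusted p = 2.23e-20). Neither gene's groups overlapped, and JAZ5 began lower and rose by the larger factor, although the difference between the 2 genes was not tested. JAZ1, the founding member, had 1563, 1533 and 1659.6 CPM at 1h, against 165, 141 and 94.9 CPM at 0h, which was 11.9-fold higher. JAZ2 had 1054, 1018 and 1058 CPM at 1h, against 145, 167 and 99.6 CPM at 0h, which was 7.61-fold higher. All 1h libraries of JAZ1 and JAZ2 stood above all 0h libraries.

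JAZ3, the gene of the dominant jasmonate-insensitive mutant jai3, had 520.2, 536 and 569 CPM at 1h, against 84.5, 84.1 and 69.7 CPM at 0h, 6.82-fold higher. JAZ9, already the most abundant member at 0h, had 1966, 1934 and 2090.2 CPM at 1h, against 471, 593 and 331 CPM at 0h. At 4.29-fold this was the smallest of the 9 called changes at 1h, and JAZ9 still headed the order per length at 1h with 1127 ± 46.5 CPM per kb, ahead of JAZ1 with 1017 ± 42.5 CPM per kb (SD, n = 3 each). Its share of the summed level was 25.3% at 1h, against 43.7% at 0h.

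JAZ10 and JAZ9 stood highest at 2h and the other 7 risen members at 1h. JAZ10 had 563, 547 and 500.0 CPM in WT leaves at 2h, 258, 288 and 312 CPM at 1h and 19.6, 17.3 and 23.3 CPM at 0h. The 2h and 1h libraries did not overlap, and the step between them was 0.91 ± 0.37 on the log2 scale (SE, adjusted p = 0.0328), short of the change required for a call. Against 0h, JAZ10 was 26.7-fold higher at 2h and 14.2-fold higher at 1h. JAZ9 had 2329, 2158 and 2160.5 CPM at 2h, above its libraries at 1h, but the step was 0.15 ± 0.20 on the log2 scale (SE, adjusted p = 0.536), so its highest time was not resolved. By the same test the highest times of JAZ1, JAZ3, JAZ5, JAZ6 and JAZ8 were not resolved either. Only JAZ2, JAZ7 and JAZ10 had an adjusted p under 0.05 for the step from 1h to 2h.

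**Figure D2:**
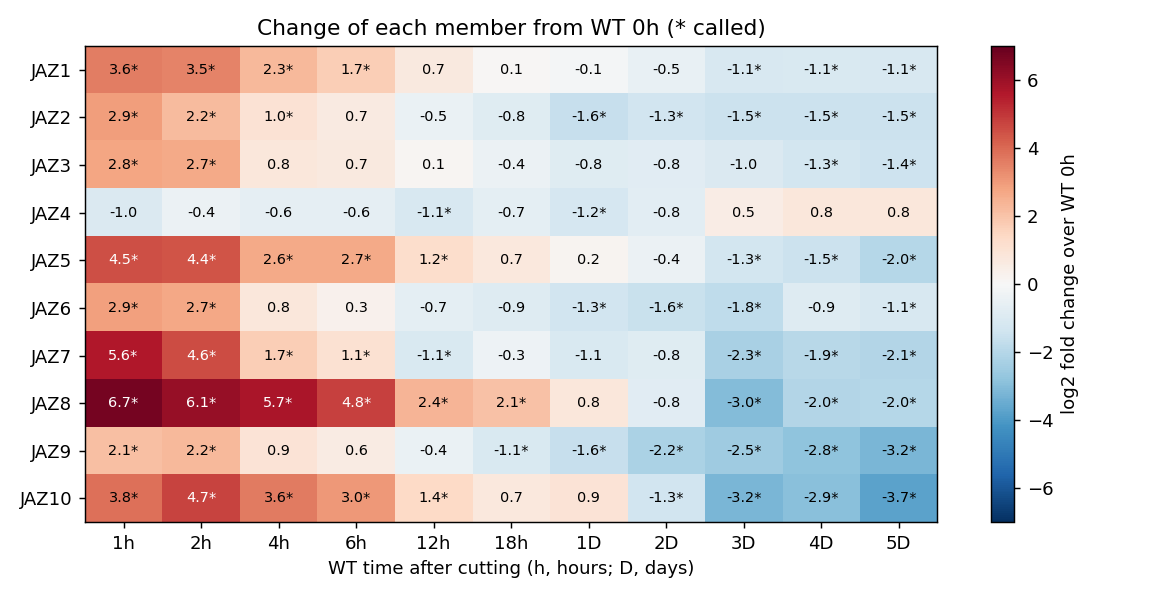
Log2 fold change of each member in WT leaves at each later time over WT 0h, with genes as rows and times as columns. An asterisk marks a call (edgeR, adjusted p under 0.05 and an absolute log2 change of at least 1). The other 9 rows are red at 1h and 2h and blue by 5D, and the JAZ4 row has no called rise.

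The members came down at different times. From 1h to 2h only JAZ7 was called lower among the members, at 79.1, 73.2 and 65.2 CPM at 2h against 158, 144 and 144 CPM at 1h, where 12.4% of all genes were called lower. That change, -1.04 on the log2 scale, was no longer called without WT 1h replicate 1 (-0.99) or without WT 2h replicate 3 (-0.96). From 2h to 4h, 8 members were called lower, against 9.94% of all genes: all but JAZ4 and JAZ8. JAZ7 had 11.8, 9.76 and 8.24 CPM at 4h, which is 6.68% of its mean at 1h. JAZ8 had 62.2, 42.5 and 38.6 CPM at 4h, which is 49.3% of its mean at 1h, and its step from 2h overlapped in range and was -0.42 ± 0.33 (SE, adjusted p = 0.277). The 2 genes thus stood at different shares of their highest level at 4h, with JAZ7 back within 3.30-fold of its 0h level and JAZ8 51.9-fold above it.

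**Figure D3:**
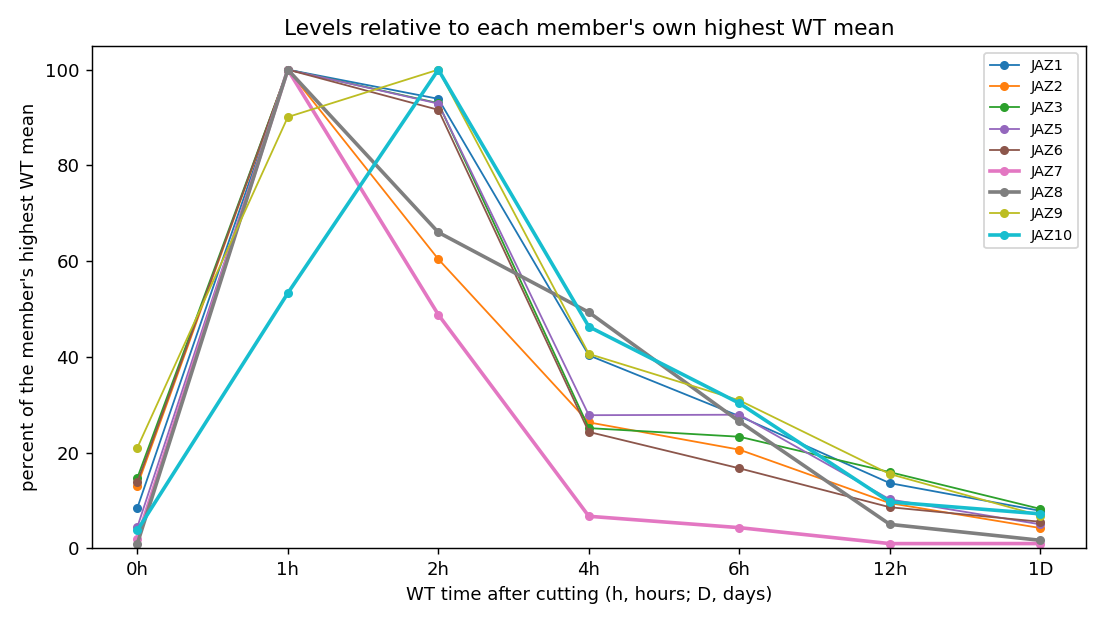
Mean level of 9 members in WT leaves from 0h to 1D, as percent of that gene's highest WT mean. Each line is 1 gene and JAZ4 is left out. At 4h JAZ7 is at 6.68% and JAZ8 at 49.3%, and JAZ10 is at 53.3% at 1h before its highest point at 2h.

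At 4h, 6 members were still called higher than at 0h, against 13.9% of all genes, and at 6h 5 members, against 9.83%. JAZ2 was the weakest of the 6 at 4h, with 296, 271 and 258 CPM against 145, 167 and 99.6 CPM at 0h. Its change of 1.00 on the log2 scale fell short of the required change without WT 0h replicate 3 (0.82) or WT 4h replicate 1 (0.93). The 5 at 6h were JAZ1, JAZ5, JAZ7, JAZ8 and JAZ10. JAZ7, at 4.81, 6.38 and 7.99 CPM in 6h leaves and 4.03, 3.25 and 1.73 CPM in 0h leaves, was called with a change of 1.09, which was not called without WT 0h replicate 3 (0.81, adjusted p = 0.157) or WT 6h replicate 3 (0.90, adjusted p = 0.106). Between 4h and 6h no member was called in either direction by edgeR or by DESeq2, where 5.67% of all genes were called, and 5 members had an unadjusted p under 0.05. JAZ8 was called lower over that step without WT 4h replicate 3. JAZ5 held 142, 137 and 134 CPM at 6h and 151, 142 and 117 CPM at 4h, with overlapping ranges. From 6h to 12h, 6 members were called lower (JAZ1, JAZ2, JAZ5, JAZ7, JAZ8 and JAZ10), against 4.25% of all genes. The weakest of these, JAZ1 at -1.02, fell short of the required change without WT 12h replicate 2 (-0.99), WT 6h replicate 2 (-0.96) or WT 12h replicate 1 (-0.98).

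At 12h, 3 members were called above their 0h level, 2 were called below it and 5 were not called. JAZ5, JAZ8 and JAZ10 were called higher, against 9.68% of all genes, and JAZ4 and JAZ7 lower, against 6.82%. JAZ8 had 4.86, 4.41 and 5.24 CPM at 12h, against 0.840, 0.789 and 1.12 CPM at 0h, and JAZ5 had 49.4, 49.9 and 51.5 CPM at 12h, against 25.9, 17.8 and 21.4 CPM at 0h. Neither pair of groups overlapped. JAZ10 had 50.8, 53.6 and 51.4 CPM at 12h, 2.59-fold above 0h. The call of JAZ7, at 1.63, 1.21 and 1.48 CPM in 12h leaves (-1.07, adjusted p = 0.0495), was lost without each of 5 libraries. These were WT 0h replicates 1 (-0.78) and 2 (-1.01) and WT 12h replicates 1 (-1.17), 2 (-0.95) and 3 (-1.09), with adjusted p between 0.0698 and 0.213. At 18h JAZ8 alone was called higher, at 3.36, 4.30 and 3.87 CPM, against 8.41% of all genes, and JAZ9 alone lower, at 216, 196 and 258 CPM, against 8.11%. The change of JAZ9 at 18h, -1.06, fell short of the required size without WT 0h replicate 2 (-0.84) or WT 18h replicate 2 (-0.97), and a second member was called lower without WT 0h replicate 3 (JAZ2) or WT 18h replicate 3 (JAZ6).

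From 1D on no member was called above its 0h level in WT leaves, and by 3D most were called below it. JAZ10 at 1D, with 43.1, 32.8 and 39.9 CPM, still stood above all 0h libraries, at 19.6, 17.3 and 23.3 CPM. Its change of 0.94 (adjusted p = 0.0349) fell short of the required size, and it was called higher without WT 0h replicate 3 or WT 1D replicate 2. At 1D, 4 members were called lower (JAZ2, JAZ4, JAZ6 and JAZ9), against 8.20% of all genes, with JAZ7 as a further member by DESeq2 (-1.04), and 4 at 2D (JAZ2, JAZ6, JAZ9 and JAZ10), against 8.68%. At 3D 8 were called lower, against 7.34% of all genes, 8 at 4D, against 7.83%, and 9 at 5D, against 9.53%. The median change of the 10 members was -1.74 at 5D, against -0.01 over all genes. The mean of JAZ9 was lower at every time from 4h on than at the time before, and it had 44.2, 50.7 and 58.5 CPM at 5D, against 471, 593 and 331 CPM at 0h, a change of -3.19 ± 0.21 on the log2 scale (SE, adjusted p = 7.97e-19). JAZ10 had 1.02, 1.85 and 1.65 CPM at 5D, against 19.6, 17.3 and 23.3 CPM at 0h, a change of -3.72 ± 0.45 (SE, adjusted p = 5.81e-10). All 5D libraries of both genes lay below all 0h libraries.

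JAZ8 went lowest relative to its highest level. It had 0.0708, 0.105 and 0.163 CPM at 3D, against 0.840, 0.789 and 1.12 CPM at 0h and 98.7, 89.8 and 102 CPM at 1h, and its mean at 1h was 858-fold its mean at 3D. The 3D values are 5 to 9 counts a library, so their relative precision is low. JAZ7 had 0.481, 0.484 and 0.962 CPM at 3D, against 4.03, 3.25 and 1.73 CPM at 0h, again without overlap. JAZ8 at 4D was called with a change of -2.03, which was -2.85 without WT 4D replicate 3. JAZ1, with 53.6, 58.2 and 73.1 CPM at 5D against 165, 141 and 94.9 CPM at 0h, had the smallest called change of the 9 at 5D. Its changes at 3D (-1.10), 4D (-1.09) and 5D (-1.12) all fell short of the required size without WT 0h replicate 1, at -0.92, -0.91 and -0.94. JAZ3 was called lower at 4D and 5D and not at 3D (-0.99) or before, and JAZ6 was called at 5D but not at 4D (-0.91).

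JAZ4 did not follow the others. It was the lowest member per length at 0h, 1h and 2h, and it had no called rise at any WT time against 0h. At 1h it had 0.269, 0.592 and 0.368 CPM, against 0.519, 0.986 and 1.04 CPM at 0h, with overlapping ranges and a change of -1.03 ± 0.49 on the log2 scale (SE, adjusted p = 0.0617), which was called without WT 0h replicate 1 or WT 1h replicate 2, and with counts divided by their spacing. Its calls below 0h rested on single libraries. At 12h, with 0.673, 0.306 and 0.168 CPM, a range overlapping that at 0h, and a change of -1.14, it was not called without WT 0h replicate 2 (-1.02) or 3 (-0.96) or without WT 12h replicate 2 (-0.99) or 3 (-0.79), and it moved to -1.81 without WT 12h replicate 1. The 12h call of JAZ4 was also lost without the low-count filter, with only the groups compared or with a replicate block. At 1D, with 0.287, 0.531 and 0.283 CPM and a change of -1.20, it was not called without WT 0h replicate 2 (-1.08) or 3 (-1.02) or without WT 1D replicate 1 (-1.05) or 3 (-1.04). Its highest mean came at 5D, where it had 1.65, 1.19 and 1.62 CPM, above all 3 libraries at 0h, but the change of 0.81 ± 0.47 was not called (adjusted p = 0.149). At 3D its level per length, 0.794 ± 0.174 CPM per kb, overlapped that of JAZ7 at 0.781 ± 0.336 CPM per kb and lay above that of JAZ8 at 0.140 ± 0.0581 CPM per kb.

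Summed per length, the 10 members stood at 4449.7 ± 169 CPM per kb in WT leaves at 1h and 4123 ± 199.9 CPM per kb at 2h, against 594 ± 120.4 CPM per kb at 0h (SD, n = 3 each). JAZ13, named below among related genes, is not in this sum. The sum was 1597 ± 160.3 CPM per kb at 4h, 553 ± 30.2 at 12h, 169.8 ± 2.94 at 3D and 161 ± 14.2 at 5D. JAZ9 and JAZ1 made up 25.3% and 22.9% of it at 1h, and JAZ6 and JAZ1 made up 24.8% and 24.4% at 5D, when JAZ9 held 17.8%. JAZ10 held 6.85% at 2h and 0.489% at 5D.

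**Figure D4:**
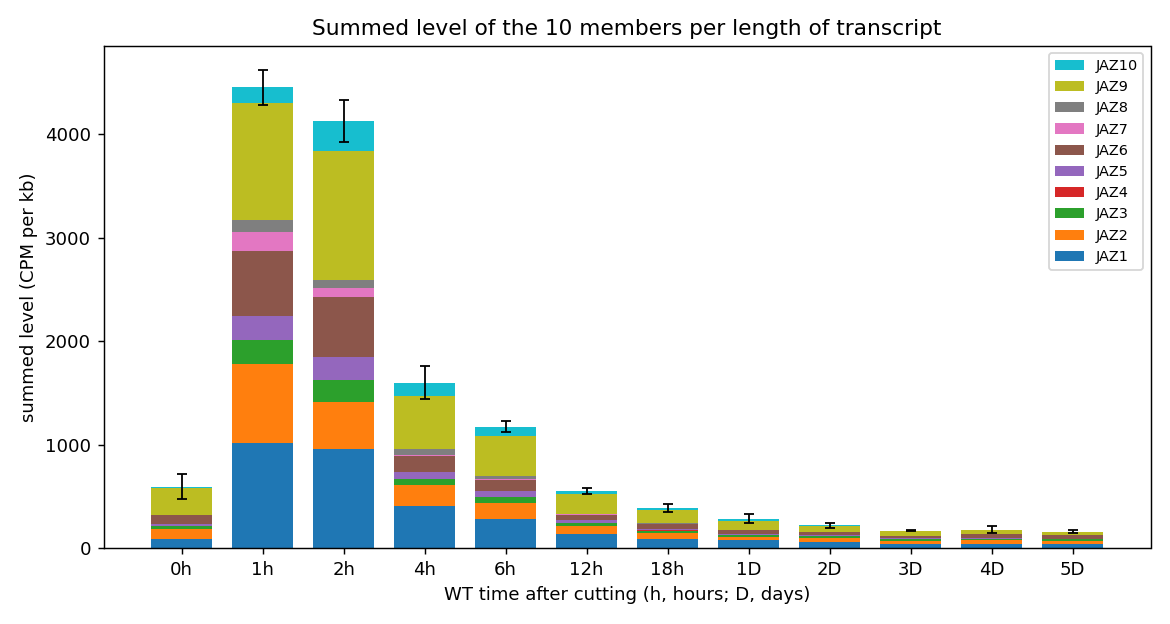
Summed level of the 10 members in WT leaves at each time, in CPM per kb of longest transcript, stacked by gene. Error bars are the SD of the sum over 3 libraries. The bars at 1h and 2h stand at 4449.7 and 4123 CPM per kb, and that at 3D at 169.8 CPM per kb.

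Across the means of all 25 groups on a log2(CPM + 1) scale, the 36 pairs among the 9 members other than JAZ4 had Pearson correlations between 0.78 (JAZ7 and JAZ10) and 0.99 (JAZ1 and JAZ5). JAZ4 ran the other way, between -0.67 with JAZ10 and -0.38 with JAZ6. These are descriptions over 25 points that share libraries, a common early wound time and 0h groups. By the same measure, over genes with a mean count of at least 50, the gene most like JAZ1 was AOC3, an allene oxide cyclase of jasmonate synthesis (0.99), and the one most like JAZ5 was LOX4, a lipoxygenase of that pathway (0.98). The gene most like JAZ2 was CYP94C1, which oxidises jasmonoyl-isoleucine (0.98), and OPR3, the reductase of jasmonate synthesis, was the third (0.98). AOS, allene oxide synthase, was at rank 2 for JAZ9 (0.96) after the kinase gene MPK17 (0.96). OPR3 and AOS were picked from ranks 2 and 3 as genes of the jasmonate pathway. Other genes at those ranks are left out here, among them AT1G61890 for JAZ2 (0.98), ERF3 for JAZ6 (0.97) and WRKY22 for JAZ7 (0.96). JAZ7 was most like RRTF1, a transcription factor of the redox response (0.96), JAZ8 like PUB22, a ubiquitin ligase of immune signalling (0.98), JAZ3 like NiaP (0.97), JAZ6 like AT1G61890 (0.97) and JAZ10 like AT5G52050 (0.97). The gene most like JAZ4 was CYP702A6 (0.92). The top 3 of each member made 30 places, filled by 26 different genes. Of these places, 21 held a gene named again for the same member with a pseudocount of 0.1 and 7 with the 12 WT groups alone. With the WT groups alone AOC3 stayed in the top 3 of JAZ1. LOX4 left the top 3 of JAZ5, CYP94C1 and OPR3 left that of JAZ2, and AOS left that of JAZ9. OPR3 was then in the top 3 of JAZ6 and JAZ7.

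Other genes of the pathway were read from lists of jasmonate signalling, related TIFY genes, synthesis, catabolism and outputs. Genes of synthesis rose with the JAZ genes at 1h: 10 of 14 were called higher and 1 lower, with a median change of 2.38 on the log2 scale, against -0.10 over all genes. Of all genes, 16.3% were called higher at 1h and 17.2% lower. LOX3, a lipoxygenase, had 6106, 6058 and 6695 CPM at 1h, against 114, 120.4 and 47.1 CPM at 0h. AOC3 had 1558, 1447 and 1798 CPM at 1h, against 13.3, 11.3 and 38.3 CPM at 0h. Genes of catabolism rose too, 9 of 10 called higher and none lower, with a median of 3.22. Among them CYP94C1 had 677, 593 and 634 CPM at 1h, against 10.3, 5.50 and 11.4 CPM at 0h. Neither of these groups of libraries overlapped.

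Of 15 signalling genes 2 were called higher at 1h, against 16.3% of all genes, and 1 lower, against 17.2%, neither of them above the share over all genes. They were the bHLH repressors JAM1 (2.95) and JAM2 (2.31), higher, and MYC4 (-1.64), lower. MYC4, one of the factors that JAZ proteins bind, had 18.9, 20.0 and 16.5 CPM at 1h, against 52.9, 64.7 and 54.4 CPM at 0h. COI1, the receptor subunit, had 49.8, 48.9 and 49.3 CPM at 1h, against 68.8, 58.4 and 61.6 CPM at 0h, and NINJA had 116, 117 and 130.4 CPM at 1h, against 111, 122 and 100.2 CPM at 0h. MYC2 is listed with 21.7, 42.3 and 6.53 CPM at 1h, against 2.31, 4.34 and 0 CPM at 0h, was not called (adjusted p = 0.201) and is listed at 0 in many other libraries. Of 6 related genes, JAZ13, the most divergent JAZ gene, was called higher, at 38.9 ± 0.743 CPM in 1h leaves and 1.53 ± 0.414 CPM in 0h leaves (SD, n = 3 each), and PPD1 and TIFY8 were called lower. Of 3 outputs, 2 were called lower at 1h, VSP1 and VSP2. VSP2, a vegetative storage protein, had 1.25, 1.88 and 1.31 CPM at 1h, against 82.5, 70.6 and 99.9 CPM at 0h, and VSP1 is listed at 0 in all 3 libraries at 1h. The fall was not seen at 2h, where no output was called lower and 1 was called higher, with changes from -1.22 to 1.57. At 2h 18.2% of all genes were called higher and 20.0% lower. No output was called at 6h. At 6h, when 5 JAZ members were still called higher, 5 of 14 synthesis genes and 8 of 10 catabolism genes were called higher, against 9.83% of all genes, and none lower, against 8.69%, with median changes of 0.89 and 4.32 on the log2 scale. At 1D the catabolism list had 4 genes called higher and 2 lower, and the synthesis list had 0 higher and 4 lower, against 9.38% of all genes higher and 8.20% lower. At 3D, 8 of 14 synthesis genes and 6 of 10 catabolism genes were called lower than at 0h, against 7.34% of all genes, and 0 of 14 and 1 of 10 higher, against 10.6%, beside the 8 JAZ members called lower. The clock genes moved over the same times, with CCA1 at 158 ± 18.9 CPM at 1h and 10.2 ± 2.20 CPM at 0h (SD, n = 3 each). Of 11 clock genes 8 were called at 1h, against 33.6% of all genes in either direction. Among cell type markers at 1h, 3 of 4 of guard cells were called lower, and the 4 summed to 268 to 315 CPM at 1h and 556 to 993 CPM at 0h. Of the 4 mesophyll markers 2 were called higher and 1 lower, with sums of 3771 to 4804 CPM at 1h and 2702 to 4509 CPM at 0h. The 4 epidermis markers summed to 226 to 251 CPM at 1h and 269 to 273 CPM at 0h and the 4 vascular markers to 1007 to 1082 CPM at 1h and 894 to 916 CPM at 0h. The part of clock and marker genes in the JAZ changes was not tested.

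In rbohE leaves the JAZ genes also rose after cutting, and 5 of them started lower. At 2h, 9 members were called higher than at rbohE 0h, against 21.6% of all genes, and 9 at 4h, against 19.2%. At 0h itself, where the level of RBOHE goes against the label, 5 members were called lower in the leaves labelled rbohE than in WT leaves (JAZ1, JAZ2, JAZ5, JAZ9 and JAZ10), against 6.27% of all genes. JAZ1 had 38.0, 32.6 and 21.3 CPM in rbohE leaves at 0h, against 165, 141 and 94.9 CPM in WT leaves, a difference of -2.12 ± 0.23 on the log2 scale (SE, adjusted p = 1.37e-10). JAZ5 had 10.1, 2.65 and 2.00 CPM in rbohE leaves, against 25.9, 17.8 and 21.4 CPM in WT leaves, a difference of -2.14 ± 0.31 (SE, adjusted p = 1.04e-07). JAZ10 had 7.83, 1.45 and 0.852 CPM in rbohE leaves, against 19.6, 17.3 and 23.3 CPM in WT leaves, a difference of -2.56 ± 0.42 (SE, adjusted p = 1.52e-06). For each of these 3 genes all rbohE libraries lay below all WT libraries, and rbohE replicate 1 was the highest of its group. All rbohE libraries also lay below all WT libraries for JAZ2, JAZ9 and JAZ6, which was not called, so this does not set the 3 genes apart. How many of all genes do so was not counted.

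Without rbohE 0h replicate 1, the difference was -3.22 for JAZ5 and -4.12 for JAZ10, and 8 members were called lower, JAZ6, JAZ7 and JAZ8 besides the 5. Without rbohE 0h replicate 2, WT 0h replicate 1 or WT 0h replicate 2 the number was 3. JAZ2, with 80.6, 58.8 and 64.4 CPM in rbohE leaves against 145, 167 and 99.6 CPM in WT leaves (-1.01), fell short of the required size without rbohE 0h replicate 2 (-0.92) or 3 (-0.98) or WT 0h replicate 1 (-0.97) or 2 (-0.85). JAZ9, with 263, 172 and 263 CPM in rbohE leaves against 471, 593 and 331 CPM in WT leaves, did so without rbohE 0h replicate 2 (-0.82) or WT 0h replicate 1 (-0.99) or 2 (-0.79). DESeq2, and edgeR with RLE size factors, called 3 members lower, JAZ1, JAZ5 and JAZ10. JAZ10 was not called when only the 2 groups entered the fit.

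Other genes moved beside the JAZ genes in rbohE leaves at 0h. Of the synthesis list 10 of 14 and of the catabolism list 9 of 10 were called lower in rbohE leaves, and none higher. Of all genes, 6.27% were called lower there and 5.47% higher. The summed level of the 4 mesophyll markers ran from 7596 to 8590.2 CPM in rbohE leaves and from 2702 to 4509 CPM in WT leaves, with 3 of 4 called higher. That of the 4 guard cell markers ran from 2046 to 2547 CPM in rbohE leaves and from 556 to 993 CPM in WT leaves, with 1 of 4 called higher. The 4 epidermis markers summed to 419 to 442 CPM in rbohE leaves and 269 to 273 CPM in WT leaves, and the 4 vascular markers to 862 to 898 CPM in rbohE leaves and 894 to 916 CPM in WT leaves. The clock genes CCA1 and TOC1 averaged 3.67 ± 0.987 and 233 ± 8.57 CPM in rbohE leaves and 10.2 ± 2.20 and 139 ± 10.8 CPM in WT leaves (SD, n = 3 each), and 3 of 11 clock genes were called lower. The part of these genes in the JAZ difference was not tested.

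At 2h no member was called between rbohE and WT leaves by edgeR or DESeq2, against 1.78% of all genes, although JAZ5 and JAZ6 had an unadjusted p under 0.05. JAZ10 had 433, 534 and 463 CPM in rbohE leaves at 2h, against 563, 547 and 500.0 CPM in WT leaves, with overlapping ranges. At 4h none was called by either tool, against 2.19% of all genes, and none had an unadjusted p under 0.05. At 1D edgeR again called none, against 0.831% of all genes, 2 members had an unadjusted p under 0.05 (JAZ3 and JAZ7) and DESeq2 called 1, JAZ7. JAZ7 then had 2.33, 4.12 and 4.74 CPM in rbohE leaves, against 1.16, 1.02 and 2.19 CPM in WT leaves, and edgeR called it without rbohE 1D replicate 1.

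The rise from 0h to 2h, tested as an interaction, was larger in rbohE than in WT leaves for 3 members, against 4.57% of all genes called higher. The rise of JAZ1 was 5.43 ± 0.27 in rbohE leaves and 3.48 ± 0.25 in WT leaves on the log2 scale, which differ by 1.95 ± 0.32 (SE, adjusted p = 9.14e-06). That of JAZ10 was 7.13 ± 0.49 in rbohE leaves and 4.74 ± 0.43 in WT leaves, which differ by 2.39 ± 0.55 (SE, adjusted p = 0.00121). That of JAZ5 was 5.85 ± 0.35 in rbohE leaves and 4.40 ± 0.32 in WT leaves, which differ by 1.45 ± 0.41 (SE, adjusted p = 0.00802). Without rbohE 0h replicate 1 the differences were 3.95 for JAZ10 and 2.53 for JAZ5. The rbohE rises of 4 members also moved by more than 1.5-fold without that library, with values at 2h of 6.93 for JAZ5, 6.04 for JAZ7, 8.24 for JAZ8 and 8.69 for JAZ10, against 5.85, 4.73, 6.77 and 7.13 with it. Those members moved in the same way at 4h, to 5.38, 3.70, 7.93 and 8.13, against 4.29, 2.38, 6.46 and 6.57. These interactions share the 0h levels given above, as do the later ones from 0h, which were called higher for 3 members to 4h, against 4.58% of all genes, for 6 to 1D, against 4.57%, for 8 to 3D, against 6.20%, and for 6 to 5D, against 5.54%. Without rbohE 0h replicate 1 the number to 4h was 5, with JAZ7 and JAZ8 added. With only the groups compared in the fit it was 1 to 2h (JAZ1) and 3 to 1D (JAZ1, JAZ2 and JAZ9).

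At 1D, 4 members were called above their own 0h level in rbohE leaves (JAZ1, JAZ5, JAZ8 and JAZ10), against 12.8% of all genes, JAZ8 not with only the groups compared, and without rbohE 0h replicate 1 these changes were 3.20 for JAZ5, 3.08 for JAZ8 and 4.59 for JAZ10, against 2.12, 1.61 and 3.02 with it. At 3D JAZ1 and JAZ5 were called higher, against 13.9% of all genes, and at 5D the same 2, against 12.7%. JAZ9 was called lower at 3D, against 11.3% of all genes, and at 5D, against 11.8%. JAZ1 at 3D (1.13) was not called without rbohE 0h replicate 3 (0.92) or rbohE 3D replicate 3 (0.99). JAZ5 at 3D (1.22) was not called without rbohE 0h replicate 2 (0.92) or 3 (0.85) and was 2.30 without rbohE 0h replicate 1. JAZ5 at 5D (1.38) was 2.47 without that library, and neither JAZ5 call at 3D or 5D was made with only the groups compared. JAZ9 at 3D (-1.05) was not called without rbohE 0h replicate 1 (-0.95) or 3 (-0.95) or rbohE 3D replicate 1 (-0.89). The number called higher at 3D ran from 0 without rbohE 0h replicate 3 to 5 without rbohE 0h replicate 1, and was 1 without rbohE 0h replicate 2 or rbohE 3D replicate 3. JAZ3 at 4h (1.01) was not called without rbohE 0h replicate 1 (0.99) or 2 (0.92) or rbohE 4h replicate 1 (0.95).

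Between genotypes at 3D, 1 member was called higher in rbohE than in WT leaves, against 0.405% of all genes. This was JAZ8, with 0.573, 0.412 and 0.723 CPM in rbohE leaves and 0.0708, 0.105 and 0.163 CPM in WT leaves, a difference of 2.38 ± 0.66 on the log2 scale (SE, adjusted p = 0.0232). The groups did not overlap, but the counts are low and the call was lost with only these groups in the fit, with counts divided by their spacing, or without rbohE 3D replicate 1 (adjusted p = 0.205), WT 3D replicate 1 (adjusted p = 0.112) or WT 3D replicate 2 (adjusted p = 0.0935). DESeq2 called JAZ7 higher at 3D as well (1.45). At 5D, 1 member was called higher, against 1.33% of all genes: JAZ5, with 10.9, 14.3 and 13.4 CPM in rbohE leaves and 4.66, 5.58 and 5.95 CPM in WT leaves, a difference of 1.25 ± 0.30 (SE, adjusted p = 0.00611). All rbohE libraries lay above all WT libraries. A second member was called without rbohE 5D replicate 1 (JAZ1), rbohE 5D replicate 2 (JAZ9) or WT 5D replicate 3 (JAZ9). JAZ9 had 107, 80.6 and 107 CPM in rbohE leaves at 5D and 44.2, 50.7 and 58.5 CPM in WT leaves, a difference of 0.94 ± 0.20 (SE, adjusted p = 0.00160), short of the required size.

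**Figure D5:**
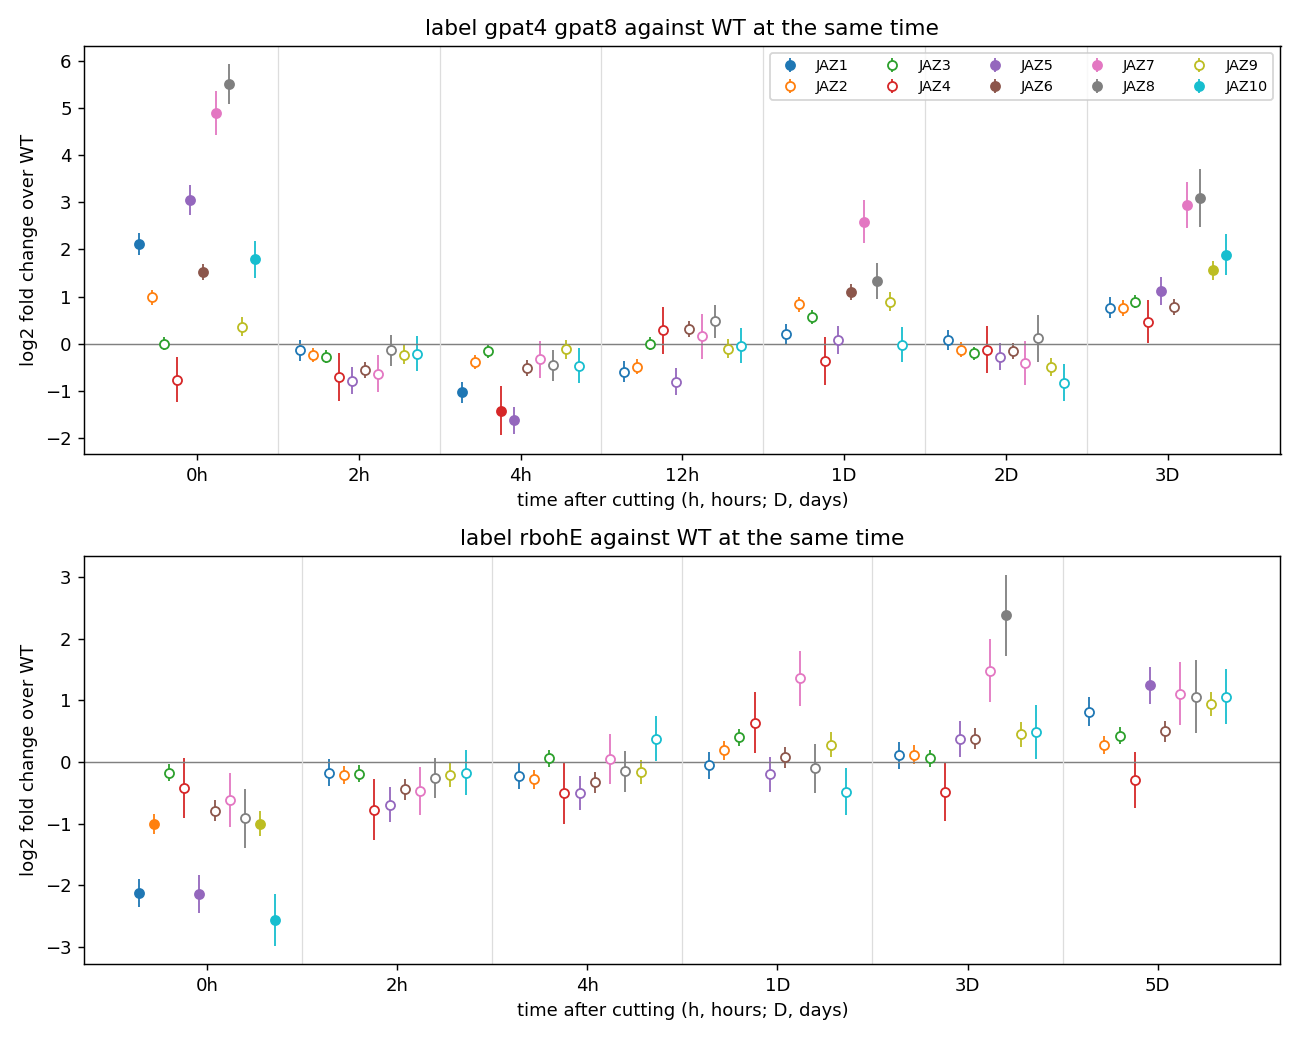
Log2 fold change of each member in gpat4 gpat8 over WT leaves and in rbohE over WT leaves at each shared time, with error bars of 1 SE. Filled points are called (edgeR, adjusted p under 0.05 and an absolute log2 change of at least 1). The largest differences are those of JAZ8 and JAZ7 in the gpat4 gpat8 libraries at 0h, at 5.50 and 4.89, and at 3D, at 3.09 and 2.95.

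At 0h, 6 members were called higher in leaves labelled gpat4 gpat8 than in WT leaves (JAZ1, JAZ5, JAZ6, JAZ7, JAZ8 and JAZ10), against 10.8% of all genes. JAZ8 had 19.1, 44.8 and 60.7 CPM in gpat4 gpat8 leaves, against 0.840, 0.789 and 1.12 CPM in WT leaves, a difference of 5.50 ± 0.42 on the log2 scale (SE, adjusted p = 1.99e-16). JAZ7 had 54.3, 113 and 100.5 CPM in gpat4 gpat8 leaves, against 4.03, 3.25 and 1.73 CPM in WT leaves, a difference of 4.89 ± 0.47 (SE, adjusted p = 3.76e-13). JAZ5 had 102, 179 and 259.8 CPM in gpat4 gpat8 leaves, against 25.9, 17.8 and 21.4 CPM in WT leaves. None of these groups overlapped, and gpat4 gpat8 replicate 1 was the lowest of its group for all 3 genes. JAZ3 did not differ beyond its spread, with 75.9, 73.9 and 87.9 CPM in gpat4 gpat8 leaves and 84.5, 84.1 and 69.7 CPM in WT leaves (adjusted p = 1.00), and JAZ9 and JAZ4 were not called either. JAZ2, at 165, 338 and 314 CPM in gpat4 gpat8 leaves and 145, 167 and 99.6 CPM in WT leaves, fell just short (0.99). It was called as the 7th member by DESeq2, by edgeR with RLE size factors (1.06), without the filter on low counts (1.04) or with only the groups compared (1.04), and without WT 0h replicate 1 or 2 or gpat4 gpat8 0h replicate 1. The summed level of JAZ1 to JAZ10 was 1475 ± 452 CPM per kb in gpat4 gpat8 leaves and 594 ± 120.4 CPM per kb in WT leaves (SD, n = 3 each).

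These 3 libraries are among the 9 whose descriptions carry the letter M, so that letter and the genotype cannot be told apart at 0h, 12h and 1D. All 11 clock genes were called at 0h, against 20.5% of all genes in either direction. CCA1 had 331, 254 and 282 CPM in gpat4 gpat8 leaves, against 12.6, 8.24 and 9.81 CPM in WT leaves, and TOC1 had 12.6, 14.0 and 18.9 CPM in gpat4 gpat8 leaves, against 136, 129.6 and 151 CPM in WT leaves. Plastid-encoded genes took 1.76% to 2.57% of the counts in gpat4 gpat8 leaves and 0.319% to 0.553% in WT leaves. The 4 mesophyll markers summed to 10303 to 11936 CPM in gpat4 gpat8 leaves and 2702 to 4509 CPM in WT leaves, with 2 of 4 called higher. Guard cell markers summed to 490.3 to 1124 CPM (WT 556 to 993), with 1 of 4 called lower. Epidermis markers summed to 274 to 364 CPM (WT 269 to 273) and vascular markers to 709.6 to 824 CPM (WT 894 to 916). Of the 3 jasmonate outputs 2 were called higher and 1 lower, with changes from -3.22 to 3.47 on the log2 scale. Among them VSP2 had 35.4, 41.9 and 633 CPM in gpat4 gpat8 leaves and 82.5, 70.6 and 99.9 CPM in WT leaves, with replicate 3 far above its group. Of the synthesis list 5 of 14 were called higher and 1 lower, and of the catabolism list 1 of 10 higher and 4 lower, with a median of -0.99 on the log2 scale, against 10.8% of all genes higher and 9.70% lower. The part of these values in the JAZ difference was not tested.

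Starting from those levels, 4 members were called higher in gpat4 gpat8 leaves at 2h than at their own 0h (JAZ1, JAZ3, JAZ9 and JAZ10), against 17.8% of all genes. The 0h libraries carry the letter M and the 2h libraries do not, so time and that letter cannot be told apart here. JAZ10 had 465, 481 and 443 CPM at 2h, against 29.6, 106 and 73.2 CPM at 0h, and JAZ3 had 488, 389.9 and 372 CPM at 2h, against 75.9, 73.9 and 87.9 CPM at 0h. Neither pair of groups overlapped. JAZ7 had 55.8, 49.9 and 35.2 CPM at 2h, overlapping its 54.3, 113 and 100.5 CPM at 0h. It was called lower without gpat4 gpat8 0h replicate 1, and also without gpat4 gpat8 2h replicate 1.

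From 12h on most members were called below that 0h level in gpat4 gpat8 leaves. The number called lower was 4 at 4h (JAZ4, JAZ5, JAZ6 and JAZ7), against 12.8% of all genes, 6 at 12h, against 6.90%, 7 at 1D, against 8.34%, 8 at 2D, against 12.9%, and 8 at 3D, against 11.2%. The 4h, 2D and 3D libraries lack the letter M that the 0h libraries carry, so time and that letter cannot be told apart there. JAZ10 was called higher at 4h, against 16.0% of all genes, but not with only the groups compared. JAZ4 at 4h (-1.28) was not called without gpat4 gpat8 4h replicate 1 (-0.76) or 2 (-1.36) or gpat4 gpat8 0h replicate 2 (-0.80), and was -1.99 without gpat4 gpat8 4h replicate 3. JAZ9 at 1D (-1.10) fell short without gpat4 gpat8 0h replicate 3 (-0.92) or gpat4 gpat8 1D replicate 1 (-0.93). Without gpat4 gpat8 2D replicate 3, JAZ7 and JAZ8 at 2D moved to -6.78 and -6.98, against -6.13 and -6.16 with it. JAZ4 was the member called higher at 3D, against 13.5% of all genes. It had 1.88, 1.74 and 1.48 CPM at 3D, against 0.264, 0.773 and 0.450 CPM at 0h, a change of 1.76 ± 0.48 on the log2 scale (SE, adjusted p = 0.00154), and the groups did not overlap.

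Between genotypes at 2h no member was called by edgeR or DESeq2, against 6.85% of all genes, with 2 at an unadjusted p under 0.05. These were JAZ5, with 338, 230.0 and 228 CPM in gpat4 gpat8 leaves and 502, 452 and 417 CPM in WT leaves, and JAZ6, both past the adjusted threshold but short of the required size. All 4 mesophyll markers were called higher in gpat4 gpat8 leaves at 2h, against 4.58% of all genes, with sums of 3937 to 10446 CPM (WT 1917 to 2396). Guard cell markers summed to 867 to 2352 CPM (WT 184 to 330.4). Epidermis markers summed to 324 to 379 CPM (WT 354 to 383) and vascular markers to 654 to 834 CPM (WT 828 to 909.5). What part they had in the JAZ values was not tested.

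At 4h, 3 members were called lower in gpat4 gpat8 than in WT leaves, against 7.39% of all genes. JAZ5 had 46.3, 29.3 and 58.2 CPM in gpat4 gpat8 leaves, against 151, 142 and 117 CPM in WT leaves, a difference of -1.62 ± 0.29 on the log2 scale (SE, adjusted p = 4.33e-06). JAZ1 had 365, 233 and 342 CPM in gpat4 gpat8 leaves, against 729.7, 612 and 574 CPM in WT leaves, and its difference of -1.03 fell short without gpat4 gpat8 4h replicate 2 (-0.85) or WT 4h replicate 1 (-0.96). The groups of these 2 genes did not overlap. JAZ4 had 0, 0.227 and 0.362 CPM in gpat4 gpat8 leaves, against 0.545, 0.537 and 0.577 CPM in WT leaves. A floor of 3 counts is 0.0524 to 0.0749 CPM in the gpat4 gpat8 libraries at 4h. Its difference of -1.42 was not called without gpat4 gpat8 4h replicate 1, the library at 0 (-0.91, adjusted p = 0.135), and was -2.14 without gpat4 gpat8 4h replicate 3. Mesophyll markers summed to 10313 to 11663 CPM in gpat4 gpat8 leaves at 4h (WT 829.5 to 973) and guard cell markers to 2646 to 3104 CPM (WT 394 to 473). Epidermis markers summed to 344 to 407 CPM (WT 177 to 199) and vascular markers to 585 to 604 CPM (WT 680.3 to 709). What part these genes had in the JAZ differences was not tested.

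At 12h no member was called between gpat4 gpat8 and WT leaves by edgeR or DESeq2, against 12.7% of all genes, with 3 at an unadjusted p under 0.05 (JAZ1, JAZ2 and JAZ5). At 1D, 3 members were called higher in gpat4 gpat8 leaves, against 7.80% of all genes. JAZ7 had 5.29, 6.98 and 14.1 CPM in gpat4 gpat8 leaves, against 1.16, 1.02 and 2.19 CPM in WT leaves, JAZ8 had 2.89, 4.18 and 5.07 CPM against 1.54, 1.14 and 2.15 CPM in WT leaves, and JAZ6 had 100.2, 135 and 164 CPM against 60.1, 55.2 and 71.2 CPM in WT leaves. No range overlapped between genotypes, and the call of JAZ6, 2.14-fold higher, was lost without gpat4 gpat8 1D replicate 3 (0.92 on the log2 scale). The 12h and 1D libraries of gpat4 gpat8 carry the letter M as well. The changes from 0h to 12h were lower in gpat4 gpat8 than in WT leaves for 7 members, against 6.69% of all genes, and those from 0h to 1D for 5 members, against 6.99%, which rest on the high 0h levels given above.

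At 2D no member was called between gpat4 gpat8 and WT leaves by either tool, against 2.07% of all genes, with JAZ9 and JAZ10 at an unadjusted p under 0.05. At 3D, in libraries without the letter M, 5 members were called higher in gpat4 gpat8 leaves (JAZ5, JAZ7, JAZ8, JAZ9 and JAZ10), against 2.52% of all genes. JAZ9 had 237, 248 and 237 CPM in gpat4 gpat8 leaves, against 79.3, 82.7 and 83.7 CPM in WT leaves, a difference of 1.56 ± 0.20 on the log2 scale (SE, adjusted p = 7.11e-08). JAZ7 had 3.94, 6.58 and 4.08 CPM in gpat4 gpat8 leaves, against 0.481, 0.484 and 0.962 CPM in WT leaves, a difference of 2.95 ± 0.49 (SE, adjusted p = 1.47e-05). JAZ8 had 0.939, 1.16 and 0.741 CPM in gpat4 gpat8 leaves, against 0.0708, 0.105 and 0.163 CPM in WT leaves, a difference of 3.09 ± 0.62 (SE, adjusted p = 2.40e-04). The libraries of the 2 genotypes did not overlap for any of the 3 genes, but the WT values of JAZ8 are 5 to 9 counts a library. Its difference is therefore imprecise. JAZ10 had 6.61, 12.3 and 5.73 CPM in gpat4 gpat8 leaves, against 2.21, 2.61 and 1.76 CPM in WT leaves, 3.72-fold higher. JAZ5 had 17.2, 26.1 and 14.9 CPM in gpat4 gpat8 leaves, against 7.72, 8.34 and 10.7 CPM in WT leaves, and its call (1.12) was lost without gpat4 gpat8 3D replicate 2 (0.84, adjusted p = 0.0831).

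JAZ1, JAZ2, JAZ3 and JAZ6 were also past the adjusted threshold at 3D, at 0.76 to 0.89 on the log2 scale, short of the required size, and JAZ4 was not (adjusted p = 0.598). JAZ1 to JAZ10 summed to 358 ± 34.6 CPM per kb in gpat4 gpat8 leaves and 169.8 ± 2.94 CPM per kb in WT leaves at 3D (SD, n = 3 each). The change from 2h to 3D, a contrast without the M libraries, was higher in gpat4 gpat8 than in WT leaves for 7 members, against 2.18% of all genes. The changes from 2h to 4h and from 2h to 2D, also without M libraries, called no member by edgeR, against 8.86% and 7.32% of all genes in either direction, with 2 and 0 members at an unadjusted p under 0.05 and 0 and 0 called by DESeq2. From 2h to 4h JAZ1 was called lower without gpat4 gpat8 2h replicate 2 or gpat4 gpat8 4h replicate 1. The change from 2h to 3D was highest for JAZ7, at 3.58 ± 0.63 (SE, adjusted p = 7.31e-05), and JAZ8, at 3.23 ± 0.71 (SE, adjusted p = 0.00114). Beside this, 3 of 14 synthesis genes, 2 of 10 catabolism genes and 2 of 3 outputs were called higher in gpat4 gpat8 leaves at 3D and none lower, and 0 of 15 signalling genes were called. Of all genes, 2.52% were called higher at 3D and 0.639% lower. The 4 mesophyll markers summed to 1895 to 2208 CPM in gpat4 gpat8 leaves and 1569 to 1699 CPM in WT leaves, with 2 of 4 called higher, the guard cell markers to 442 to 546 CPM in gpat4 gpat8 leaves and 226 to 305 CPM in WT leaves, and 1 of 11 clock genes was called. The part of these genes in the JAZ difference was not tested.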

How the data were processed

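RNA of 75 wounded leaf libraries was compared at the level of genes, with groups taken from the sample titles. Per the submitters' processing notes, reads were processed with Trimmomatic 0.39, HISAT2 2.2.1, StringTie 1.3.4 and edgeR 3.19 on the TAIR10 genome; their roles and settings are not given in the sources used here. The authors deposited 1 table of estimated counts per gene, as whole numbers, which were used as deposited. Low values in it are spaced by about 2.64, for a reason that is not stated. If 1 sequenced fragment is worth about that many counts, counting error is larger than the counts alone would give.

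From these counts, edgeR 4.0.16 in R 4.3.3 (limma 3.58.1) fitted 1 coefficient per group over all 75 libraries, with TMM normalization, a low-count filter (minimum count 10, minimum total 15), robust quasi-likelihood dispersion and a prior count of 0.125. Of 32833 genes 23475 were tested in 55 contrasts, with Benjamini-Hochberg adjustment over all tested genes. An interaction is the change in the mutant minus the change in WT leaves. The SE was derived from the F statistic. Levels are TMM-scaled CPM, divided by the longest TAIR10.1 transcript where genes are compared. Near copies were sought with BLAST 2.17.0+ (threshold 1e-05). The test was also run on simulated counts and scored by adjusted p alone. Far fewer genes changed there than were called at WT 1h, so that run does not check the scaling or the required size.

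Members and gene lists were chosen with earlier results of these data known. Genes named besides the members are, in each jasmonate list, genes among the 3 with the largest called changes at WT 1h among genes with a mean of at least 50 counts, COI1, NINJA and MYC2, the clock genes CCA1 and TOC1, the targeted genes, and for each member genes among the 3 with the highest correlation. The rule also took the clock gene LHY, not reported above, and LOX4 (5.42), CYP94B3 (4.95) and CYP94B1 (4.87 on the log2 scale at WT 1h). VSP1 came under the same rule, and its values of 0 were picked for mention after they were seen. Alternatives were RLE size factors, DESeq2 1.42.0, no filter, only the groups compared, a replicate block, counts divided by their spacing, each library left out and, added after seeing the data, the 9 M libraries left out. The 3 libraries of a group were never identical, with correlations of 0.979 to 0.997 over all pairs.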

Additional observations from a re-analysis of the deposited data

Results flagged for a closer look

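The changes over time of several members differed between genotypes by a test of the difference itself, edgeR's interaction with Benjamini-Hochberg adjustment over all genes. Each value is the change in the mutant minus the change in WT leaves, on the log2 scale. Those of rbohE were all higher than in WT leaves, and all of them use the 0h libraries, where 5 members were called lower in rbohE leaves, so they are not separate results. From 0h to 2h they were JAZ1 (1.95), JAZ5 (1.45) and JAZ10 (2.39). From 0h to 4h the members were JAZ1 (1.90), JAZ5 (1.64) and JAZ10 (2.94). From 0h to 1D the values were those of JAZ1 (2.07), JAZ2 (1.20), JAZ5 (1.94), JAZ7 (1.97), JAZ9 (1.29) and JAZ10 (2.08). Of these, JAZ7 was not called without any 1 of 6 libraries (rbohE 0h replicates 2 and 3, rbohE 1D replicate 3, WT 0h replicate 1, WT 1D replicates 1 and 2), with adjusted p between 0.0503 and 0.0761. The interval from 0h to 3D gave JAZ1 (2.23), JAZ2 (1.13), JAZ5 (2.51), JAZ6 (1.17), JAZ7 (2.09), JAZ8 (3.28), JAZ9 (1.46) and JAZ10 (3.05). JAZ7 was lost there without rbohE 0h replicate 2 or 3 or WT 0h replicate 1, and JAZ2 without WT 0h replicate 2 (0.97). The interval to 5D gave JAZ1 (2.95), JAZ2 (1.30), JAZ5 (3.39), JAZ6 (1.29), JAZ9 (1.94) and JAZ10 (3.62). Without rbohE 0h replicate 1 the values moved by more than 1.5-fold for JAZ5 (2.53 to 2h, 2.72 to 4h, 3.02 to 1D, 3.59 to 3D and 4.47 to 5D), JAZ10 (3.95, 4.50, 3.65, 4.61 and 5.18 in the same order), JAZ7 (3.28 to 1D and 3.40 to 3D) and JAZ8 (4.75 to 3D). Without rbohE 5D replicate 1, JAZ10 to 5D was 2.91. With only the groups compared in the fit, JAZ5 was not called to 2h, 4h or 1D, JAZ10 to 2h or 1D, or JAZ7 to 1D or 3D. At 0h the level of RBOHE goes against the label.

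In the libraries labelled gpat4 gpat8, the change from 2h to 3D was higher than in WT leaves for JAZ3 (1.16), JAZ5 (1.91), JAZ6 (1.33), JAZ7 (3.58), JAZ8 (3.23), JAZ9 (1.79) and JAZ10 (2.11). The change from 0h to 12h was lower for JAZ1 (-2.71), JAZ2 (-1.47), JAZ5 (-3.86), JAZ6 (-1.21), JAZ7 (-4.74), JAZ8 (-5.02) and JAZ10 (-1.83), of which JAZ6 was not called without gpat4 gpat8 0h replicate 3 (-0.99). That from 0h to 1D was lower for JAZ1 (-1.91), JAZ5 (-2.97), JAZ7 (-2.30), JAZ8 (-4.17) and JAZ10 (-1.81). The 0h, 12h and 1D libraries of gpat4 gpat8 are those marked M, and the part of that mark in these values cannot be told apart from the genotype.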

How the results depend on the processing

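None of the 8 totals of called members below moved by more than 1.5 times with another setting, and none of the 226 member calls reversed in any setting or without any single library. Across settings, called members numbered 66 to 70 for WT times against 0h (69 reported), 21 to 23 for WT steps (21), 25 to 28 for rbohE times (28), 39 to 41 for gpat4 gpat8 times (39), 5 to 7 for rbohE against WT (7), 17 to 18 for gpat4 gpat8 against WT (17), 19 to 28 for rbohE interactions (26) and 19 to 20 for gpat4 gpat8 interactions (19). Leaving out 1 library at a time gave 66 to 70, 19 to 23, 25 to 31, 38 to 44, 5 to 10, 16 to 18, 24 to 33 and 18 to 21, in the same order. For rbohE against WT, 2 members higher and 5 lower became 4 higher and 3 lower with DESeq2. Single comparisons moved further. Members lower in rbohE than in WT leaves at 0h were 3 with DESeq2 or RLE size factors (5 reported), and members higher at 3D were 0 with only the groups compared or counts divided by their spacing and 2 with DESeq2 (1 reported). Members lower at WT 12h were 0 without the low-count filter and 1 with only the groups compared, the replicate block or counts divided by their spacing (2 reported). With counts divided by their spacing JAZ4 was called lower at WT 1h, where 0 were reported. With only the groups compared, members higher in rbohE leaves than at 0h were 1 at 3D and 1 at 5D (2 each reported), and those higher in the rbohE interactions were 1 to 2h (3 reported) and 3 to 1D (6 reported). JAZ7 was called lower at WT 1D with DESeq2 (-1.04), the replicate block (-1.07) or the M libraries left out (-1.05). From 2D to 3D in WT leaves JAZ4 was called higher with DESeq2, only the groups compared, the replicate block or counts divided by their spacing. Of the 226 calls, 22 were lost in at least 1 setting and 31 without 1 library. A replicate block gave 69, 21, 28, 39, 7, 17, 26 and 19. Whether the replicate numbers pair the libraries was not settled. Same-numbered libraries deviated together with a mean correlation of only 0.02, against -0.01 for others, and 1 of 45 comparisons had every pair over 0.1. But 45 of 75 libraries correlated best with their own number of the 3, which is more than 1 in 3. Of the 30 places among the genes most like a member, 7 held a gene named again for that member with the 12 WT groups alone, and the cause was not tested. Counts were low for JAZ4 throughout, and for JAZ8 in WT leaves at 3D, at 5 to 9 a library, which limits precision there.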
